A study of Mus musculus with 6 samples.

Results

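The 29 genes described here encode the enzymes that make cholesterol and the proteins that sense, export, move and store it. They were taken by symbol from a list of genes with these roles, which was drawn up with earlier results of these data known and leaves out some genes of the pathway, and 29 of the 54331 genes listed are members. Of these, 18 are enzymes of synthesis, 4 sense sterols and control SREBP2, and 7 act in receptor turnover, efflux, transport and storage. All 29 averaged at least 1 TPM over the 6 libraries and were tested. TPM measures transcript abundance, corrected for transcript length and scaled to the same total in each library.

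RNA-seq was performed at 10 dpi (days after infection) on mouse embryonic fibroblasts (MEFs) undergoing reprogramming, with 3 wells in each of 2 groups, OSKA + 4OHT and OSKA − 4OHT. The MEFs came from male E13.5 embryos carrying an Oct4-EGFP transgene on a mixed C57BL/6, DBA/2 and ICR background, and several embryos were pooled. Both groups had been infected with retroviruses for Oct4, Sox2 and Klf4 (OSK) and for AKT-MER, in which AKT is joined to a modified estrogen receptor and is switched on by 4-hydroxytamoxifen (4OHT). From 3 dpi one group received 4OHT and the other its vehicle, ethanol. The comparison asks how the cells differ when AKT is active during reprogramming. No library with 4OHT but without AKT-MER was analysed here, so the action of 4OHT itself and that of AKT cannot be told apart. The paper did run that control, by colony counts and, at an earlier day, by microarray, and describes the effects of 4OHT there as limited. The values of the genes reported here were not examined in that control. The wells were plated from cells that had been infected together, so the p-values measure the spread between wells, which may be technical. Below, the values of replicates 1, 2 and 3 of a group stand in that order.

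Cholesterol is built from acetyl-CoA through mevalonate, isoprenoid diphosphates, squalene and lanosterol, and lanosterol is then trimmed and reduced step by step. The enzymes of this route are among the best known targets of SREBP2, a transcription factor held in the endoplasmic reticulum. When sterols are scarce, SCAP escorts SREBP2 to the Golgi, where proteases release its active part. When sterols are plentiful, INSIG proteins hold SCAP and SREBP2 back. Oxysterols and sterol intermediates act the other way through the liver X receptors, which raise the genes of efflux such as *Abca1*. Fibroblasts in culture with serum use both synthesis and uptake.

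In the OSKA + 4OHT wells the synthesis enzymes had lower mean levels, of which 2 passed the test, and the efflux transporter *Abca1* had a higher one. All 18 synthesis enzymes had a log2 fold change below 0, with a median of -0.50, whereas the median of all 15382 tested genes was 0.14. This count and those below hold for the listed genes only, and the choice of the list means that they are a description. A gene was called when the limma p-value, adjusted by the Benjamini-Hochberg method over all tested genes, was under 0.05. By this test *Msmo1* and *Ebp* fell, *Abca1* rose and the other 26 members were not called. Among all tested genes 1.97% were called lower and 3.52% were called higher.

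Added over the 18 enzymes, the level was 1417, 1376 and 1650.5 without 4OHT and 1064, 1139 and 946 with it (summed TPM). Every well with 4OHT lay below every well without it, and the sum went from 1481 ± 148 to 1049.8 ± 97.5 (SD, n = 3 each), a difference of -29.1%. The 7 enzymes of the mevalonate pathway summed to 597 ± 47.8 TPM without 4OHT and 453 ± 63.7 (SD, n = 3 each) with it. Those of squalene and the sterols, 11 in all, summed to 884 ± 102 TPM without 4OHT and 597 ± 33.9 (SD, n = 3 each) with it. The means of these 2 stretches differed by -24.2% and -32.5%, and neither sum overlapped between the groups. The 4 sensing genes summed to 272 ± 58.4 and 341 ± 5.38 (SD, n = 3 each) TPM, and the 7 genes of turnover, efflux, transport and storage to 306 ± 26.0 and 356 ± 32.7 (SD, n = 3 each) TPM, without and with 4OHT. The sum of the sensing genes was higher with 4OHT without overlap, by 25.1%, but only by 11.8% without OSKA − 4OHT replicate 2, and that of the other 7 genes overlapped. These are levels in bulk RNA, in which fewer cells that use a gene and less of its RNA per cell cannot be told apart.

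**Figure D1:**
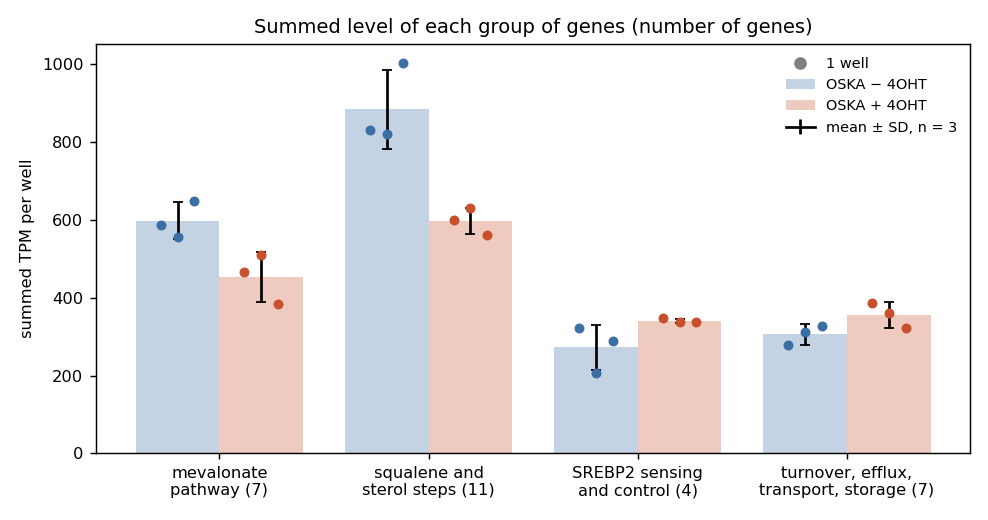
Summed TPM per well of the 4 groups of members, with the number of genes of each group in brackets. Bars show the mean of 3 wells, error bars the SD and dots the wells. For both groups of synthesis enzymes the 3 OSKA + 4OHT wells lie below the 3 OSKA − 4OHT wells, and for the other 2 groups of genes the mean is higher with 4OHT by 25.1% (11.8% without OSKA − 4OHT replicate 2, the lowest dot) and 16.4%.

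The libraries also differed in cell markers, and their part in the lower sums of the synthesis enzymes was not tested. The 8 fibroblast markers summed to 5973 to 7789 TPM in the OSKA − 4OHT wells and 3981 to 5236 TPM in the OSKA + 4OHT wells, a difference of -30.9% in the mean, with 2 genes called lower and 1 higher. This list went both ways, with 4 genes lower and 3 higher without overlap, and most of its sum came from *Vim*, *Col1a1* and *Col1a2*, which are among the 4. The 8 markers of pluripotent cells summed to 3.77 to 5.59 and 48.7 to 60.1 TPM, with 4 called higher. The 8 macrophage markers summed to 123 to 154 and 81.2 to 92.9 TPM, a difference of -38.1% in the mean, with 1 called lower. Only 2 of these 8 were lower without overlap, and most of the difference came from *Lyz2*, which had means of 95.2 and 51.8 TPM. The marker genes named here were picked after their values were seen. Beside these counts, 1.97% of all tested genes were called lower and 3.52% higher, and 10.0% lay lower and 18.1% higher without overlap. Of the 6 adipocyte markers, *Adipoq*, *Plin1*, *Cfd* and *Retn* were listed at 0 in every library, and the whole list summed to 1.69 to 6.54 and 4.77 to 14.3 TPM. The 4 endothelial markers summed to 21.4 to 27.9 and 28.1 to 37.6 TPM. The number of genes above 0 was 15814, 17692 and 16906 without 4OHT and 18147, 18230 and 17578 with it. Wells of the same group correlated at 0.809 to 0.864 across genes, which are not independent replicates.

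Gene by gene, the wells of the groups did not overlap for 9 of the 18 enzymes, each lower with 4OHT, against 10.0% of all tested genes that lay lower without overlap. Likewise 9 of the 18 had an unadjusted limma p-value under 0.05 with a lower level, against 7.18% of all genes. At an adjusted p-value under 0.1 there were 6, namely *Hmgcs1*, *Lss*, *Msmo1*, *Nsdhl*, *Hsd17b7* and *Ebp*, against 3.56%. These 6 were all called after median of ratios scaling and after quantile normalization, when 2.93% and 2.82% of all tested genes were called lower. None of the 18 enzymes was called with the replicate number as a block or with any 1 well left out. The same held with no trend in the limma variance prior. In these fits 0.104% (block), 0.419% to 0.93% (a well left out) and 1.38% (no trend) of all tested genes were called lower. A log2 fold change below 0 was found in 40.7% of all tested genes. The enzymes are well expressed, so the same shares were taken over the 8799 genes that averaged 10 TPM or more. These were 40.5% below 0, 11.4% lower without overlap and 2.81% called lower.

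**Figure D2:**
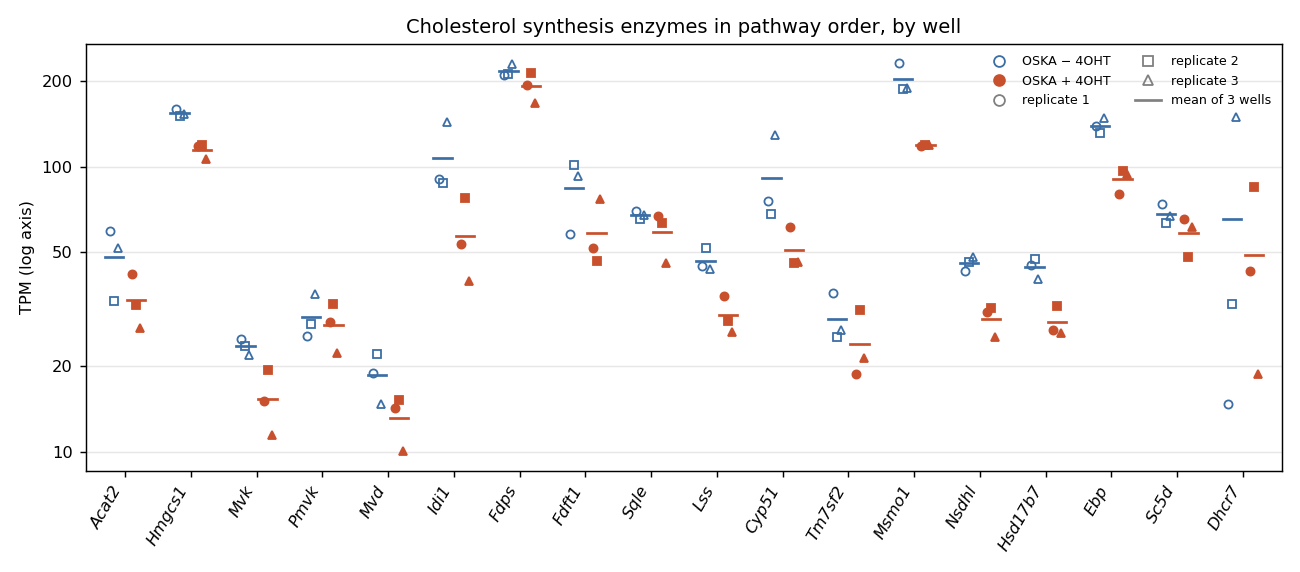
TPM of the 18 synthesis enzymes in pathway order, on a log axis, with a symbol for each well and a line at the mean of 3 wells. Open blue symbols are OSKA − 4OHT and filled red symbols OSKA + 4OHT. The red mean is below the blue mean for all 18 enzymes, and the wells of *Dhcr7* spread from 14.7 to 149.2 TPM.

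The 7 listed enzymes of the mevalonate stretch all had a log2 fold change below 0, with a median of -0.48. None was called, and 1.97% of all tested genes were called lower. *Acat2*, the cytosolic thiolase that joins acetyl-CoA units, had 59.3, 33.9 and 51.8 TPM without 4OHT and 42.1, 32.6 and 27.3 TPM with it. The groups overlapped through OSKA − 4OHT replicate 2 and OSKA + 4OHT replicate 1, and the limma adjusted p was 0.364. *Hmgcs1*, the HMG-CoA synthase that makes the precursor of mevalonate, lies on chromosome 13, 119690379 to 119708260 (GRCm38, as all positions here). It had 159, 149.8 and 152 TPM without 4OHT and 118, 119 and 106 TPM with it. These are the closest replicates of the mevalonate stretch, and the groups did not overlap. Its mean went from 154 ± 4.52 to 114 ± 7.05 TPM (SD, n = 3 each), a difference of -25.6%, with a log2 fold change of -0.43 (SE 0.114, 95% interval -0.70 to -0.15, limma adjusted p = 0.0888).

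The 3 enzymes that phosphorylate and decarboxylate mevalonate were expressed at lower levels than *Hmgcs1*. *Mvk*, mevalonate kinase, had 24.9, 23.5 and 21.9 TPM without 4OHT and 15.1, 19.4 and 11.5 TPM with it, without overlap, and its log2 fold change was -0.63 (limma adjusted p = 0.185). *Pmvk*, phosphomevalonate kinase, had 25.4, 28.1 and 35.8 TPM without 4OHT and 28.6, 32.9 and 22.2 TPM with it. Its groups overlapped, with OSKA + 4OHT replicate 3 below and OSKA − 4OHT replicate 3 above all other wells, and with a log2 fold change of -0.10 it stood nearest to 0 among the mevalonate enzymes (limma adjusted p = 0.840). *Mvd*, the decarboxylase that yields isopentenyl diphosphate, had 18.9, 22.0 and 14.8 TPM without 4OHT and 14.3, 15.1 and 10.0 TPM with it, with a log2 fold change of -0.48 (limma adjusted p = 0.326). The groups of *Mvd* overlapped in OSKA − 4OHT replicate 3, the lowest well of its group.

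*Idi1* interconverts the isomers of isopentenyl diphosphate, and its log2 fold change was the lowest of the 18 enzymes. It had 90.3, 87.8 and 144 TPM without 4OHT and 53.7, 77.9 and 39.7 TPM with it, with no overlap, and the log2 fold change was -0.92 (SE 0.308, limma adjusted p = 0.154). The value is uncertain, because 684 bases of its longest transcript, 22.6% of it, are identical to *Gm13502*, and Salmon can split reads between such copies. *Gm13502* was listed at 82.6, 75.2 and 43.8 TPM without 4OHT and 33.8, 0 and 22.3 TPM with it, and in each group the highest *Idi1* value lay in the well with the lowest *Gm13502* value. Added together, a step chosen after the values were seen, they gave 173, 163 and 188 TPM and 87.4, 77.9 and 62.0 TPM. The mean of this sum went from 175 ± 12.3 to 75.8 ± 12.9 TPM (SD, n = 3 each). No test of this sum is given, since the values themselves prompted it.

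*Fdps*, which joins the isomers into farnesyl diphosphate, was the most abundant enzyme of the route. It had 209.9, 210.2 and 229 TPM without 4OHT and 193, 213 and 167 TPM with it, and the groups overlapped, with a log2 fold change of -0.18 (limma adjusted p = 0.485). That value was -0.090 without OSKA + 4OHT replicate 3. Farnesyl diphosphate is a branch point, since it also feeds protein prenylation, ubiquinone and dolichol. Other annotated transcripts resemble *Fdps*, 4 of them over more than 60% of the transcript compared, and each of these 4 was listed at a mean under 1 TPM in both groups. *Gm48326*, which shares 8.9% of it, had a mean of 0 TPM without 4OHT and 26.9 TPM with it. *Acat2* is in a like position, being 97.7% identical to *Acat3* over 65.6% of its transcript, and *Acat3* had a mean under 1 TPM in both groups.

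From squalene synthase on, the route is committed to sterols. *Fdft1*, squalene synthase, had 57.9, 101 and 92.4 TPM without 4OHT and 52.0, 46.7 and 77.2 TPM with it. Its groups overlapped, and the log2 fold change was -0.50 (limma adjusted p = 0.372). *Sqle*, the squalene epoxidase and a rate-limiting step, had 69.8, 65.6 and 67.9 TPM without 4OHT and 67.1, 63.5 and 46.1 TPM with it. With 4OHT, replicate 1 lay within the range of the other group, replicate 2 just under it and replicate 3 well below it, with a log2 fold change of -0.22 (limma adjusted p = 0.545). That value was -0.053 without OSKA + 4OHT replicate 3. *Lss*, which closes squalene epoxide into the ring system of lanosterol, had 44.7, 51.7 and 43.8 TPM without 4OHT and 35.3, 28.9 and 26.3 TPM with it. All its wells with 4OHT were below all those without, and the log2 fold change was -0.63 (SE 0.174, limma adjusted p = 0.0975).

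Lanosterol is then demethylated and reduced. *Cyp51*, the demethylase that acts first, had 75.4, 68.1 and 129 TPM without 4OHT and 61.2, 45.8 and 46.3 TPM with it, without overlap, but OSKA − 4OHT replicate 3 was far above its group and the log2 fold change of -0.78 had a limma adjusted p of 0.174. *Tm7sf2*, a sterol reductase whose reaction the lamin B receptor can also carry out, had 35.9, 25.2 and 26.6 TPM without 4OHT and 18.8, 31.5 and 21.3 TPM with it. The groups of *Tm7sf2* overlapped, with a log2 fold change of -0.30 (limma adjusted p = 0.549). That value was -0.15 without replicate 1 of either group and -0.52 without OSKA + 4OHT replicate 2.

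The next 3 enzymes work in turn to remove the remaining pair of methyl groups, and all were lower with 4OHT without overlap. *Msmo1*, the methylsterol monooxygenase that starts this, lies on chromosome 8, 64718139 to 64733792. It had 229.8, 188 and 189 TPM without 4OHT and 118, 119 and 119 TPM with it. Its mean fell by 41.3%, from 202 ± 24.1 to 119 ± 0.572 TPM (SD, n = 3 each), and the wells with 4OHT were almost the same. The log2 fold change was -0.76 (SE 0.127, 95% interval -1.07 to -0.46, limma adjusted p = 0.0263). *Nsdhl*, the dehydrogenase and decarboxylase of the same cycle, lies on chromosome X, 72918557 to 72958514. It had 42.9, 46.3 and 48.3 TPM without 4OHT and 30.8, 32.0 and 25.2 TPM with it, with a log2 fold change of -0.64 (SE 0.160, limma adjusted p = 0.0754). *Hsd17b7*, the ketoreductase that completes the cycle, lies on chromosome 1, 169949535 to 169969241. It had 45.4, 47.4 and 40.3 TPM without 4OHT and 26.8, 32.5 and 26.1 TPM with it, with a log2 fold change of -0.63 (SE 0.163, limma adjusted p = 0.0804). The log2 fold changes of these 3 enzymes lay between -0.76 and -0.63.

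*Ebp*, the isomerase that moves a double bond of the sterol ring, is also known as a binding protein of antiestrogens such as tamoxifen. It lies on chromosome X, 8185329 to 8193512 and had 139, 131 and 147 TPM without 4OHT and 80.4, 96.7 and 94.3 TPM with it. The groups did not overlap, and the mean fell by 35.0%, from 139 ± 8.24 to 90.4 ± 8.82 TPM (SD, n = 3 each). The log2 fold change was -0.62 (SE 0.132, 95% interval -0.94 to -0.30), and its limma adjusted p of 0.04996 was only just under the threshold. Neither *Ebp* nor *Msmo1* was called when any 1 of the 6 wells was left out. The limma adjusted p then ranged from 0.0908 to 0.147 for *Ebp* and from 0.0581 to 0.0966 for *Msmo1*. Their log2 fold changes ranged from -0.67 to -0.54 and from -0.81 to -0.66. In these fits 0.419% to 0.93% of all tested genes were called lower.

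The last steps were less separated. *Sc5d*, the desaturase that follows EBP, had 74.0, 63.6 and 67.3 TPM without 4OHT and 65.6, 48.3 and 61.3 TPM with it, with overlap and a log2 fold change of -0.23 (limma adjusted p = 0.486). That value was -0.10 without OSKA + 4OHT replicate 2. *Dhcr7*, the reductase of the final step, had 14.7, 33.0 and 149 TPM without 4OHT and 43.2, 85.1 and 18.7 TPM with it. Its wells differed more within each group than between the groups, and the log2 fold change of -0.028 had a 95% interval of -2.24 to 2.19, so nothing can be said of its direction. The gene has 13 annotated transcripts, the shortest of 230 bases, and a gene level in TPM depends on how Salmon shares reads among them. *Tm7sf2* has 15 and *Insig2* 14. Without 4OHT the SD was 111% of the mean for *Dhcr7*, 19.8% for *Tm7sf2* and 16.75% for *Insig2*. With 4OHT it was 68.5%, 28.2% and 39.9%. The part of transcript number in this spread was not tested.

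Ordered by their mean level without 4OHT, *Fdps*, *Msmo1*, *Hmgcs1* and *Ebp* led the 18 enzymes and *Mvd*, *Mvk*, *Tm7sf2* and *Pmvk* came last. *Fdps* and *Msmo1* overlapped without 4OHT and did not overlap with it, when *Msmo1* overlapped *Hmgcs1* instead. By well, OSKA + 4OHT replicate 3 held the lowest value for 11 of the 18 enzymes, replicates 1 and 2 of that group for 3 each, and OSKA − 4OHT replicate 1 for *Dhcr7*. The highest value lay in an OSKA − 4OHT well for all 18. Relative to the OSKA − 4OHT mean, the median enzyme stood at 0.673, 0.729 and 0.589 in OSKA + 4OHT replicates 1 to 3, so each of these wells shows the lower level. In OSKA − 4OHT replicates 1 to 3 it stood at 1.01, 0.956 and 1.03. Without OSKA + 4OHT replicate 3, 16 of the 18 enzymes had a log2 fold change below 0, with a median of -0.41.

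**Figure D3:**
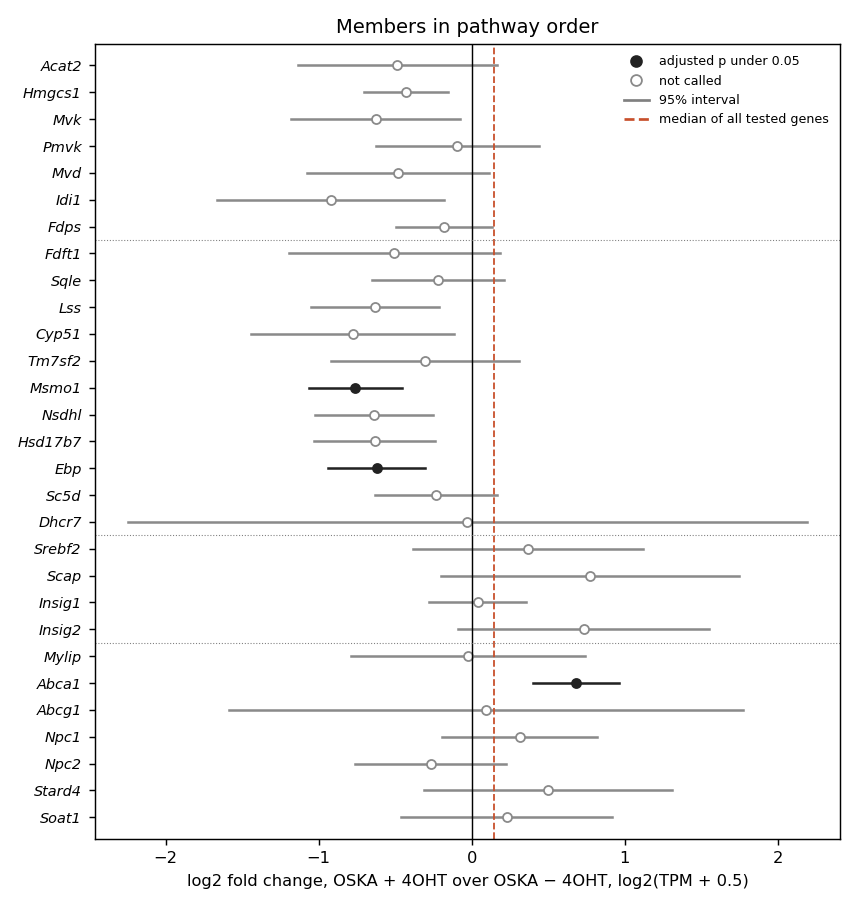
Log2 fold change of each member, OSKA + 4OHT over OSKA − 4OHT on the log2(TPM + 0.5) scale, with its 95% interval, in pathway order. Dotted lines part mevalonate enzymes, sterol enzymes, sensing genes and the genes of turnover, efflux, transport and storage. Filled points have an adjusted p under 0.05 and the dashed line is the median of all tested genes (0.14). All 18 enzymes lie to the left of both lines, and *Abca1* is the filled point on the right.

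The stretch before the start site is where SREBP2 is known to act on the enzymes, beside NF-Y, which binds CCAAT, and Sp1, which binds GC boxes. The 250 bases upstream of the RefSeq start are given for the 5 enzymes with the smallest adjusted p-values, and for *Abca1*, the called gene of opposite direction. The RefSeq start can differ from the GENCODE start used for the gene positions. Most of the *Msmo1* window, from 64733579, lies inside its GENCODE interval, which ends at 64733792. Part of the *Hsd17b7* window, from 169969206, lies inside its interval, which ends at 169969241. They are RefSeq sequences of GRCm38.p6, read 5′ to 3′ on the strand of the gene, and capitals mark TCACNCCAC (a sterol response element, SRE), CCAAT and GGGCGG (GC box) or their reverse complements. No pair of these matches overlaps.
*Hmgcs1*, chr13:119690101-119690350, plus strand: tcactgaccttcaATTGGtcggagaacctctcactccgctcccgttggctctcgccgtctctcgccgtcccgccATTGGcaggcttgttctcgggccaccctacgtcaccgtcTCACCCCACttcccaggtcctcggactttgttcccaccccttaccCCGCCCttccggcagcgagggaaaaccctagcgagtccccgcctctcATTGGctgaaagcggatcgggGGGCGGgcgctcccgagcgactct
*Msmo1*, chr8:64733579-64733828, minus strand: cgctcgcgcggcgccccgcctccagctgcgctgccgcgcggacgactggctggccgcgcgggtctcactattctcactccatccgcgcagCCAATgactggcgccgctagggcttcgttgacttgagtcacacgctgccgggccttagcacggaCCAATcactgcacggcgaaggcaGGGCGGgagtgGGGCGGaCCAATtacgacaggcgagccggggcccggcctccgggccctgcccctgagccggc
*Nsdhl*, chrX:72918271-72918520, plus strand: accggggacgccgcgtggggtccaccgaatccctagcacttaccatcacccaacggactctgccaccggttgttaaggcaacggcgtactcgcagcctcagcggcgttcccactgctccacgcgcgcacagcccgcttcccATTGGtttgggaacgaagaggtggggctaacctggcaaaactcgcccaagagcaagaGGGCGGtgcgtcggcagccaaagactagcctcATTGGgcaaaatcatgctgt
*Hsd17b7*, chr1:169969206-169969455, minus strand: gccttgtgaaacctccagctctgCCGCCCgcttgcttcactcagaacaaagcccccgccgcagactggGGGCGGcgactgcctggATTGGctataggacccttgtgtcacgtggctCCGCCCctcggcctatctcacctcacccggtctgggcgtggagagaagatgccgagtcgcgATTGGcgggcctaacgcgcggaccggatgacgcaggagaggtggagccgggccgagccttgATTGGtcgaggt
*Ebp*, chrX:8193513-8193762, minus strand: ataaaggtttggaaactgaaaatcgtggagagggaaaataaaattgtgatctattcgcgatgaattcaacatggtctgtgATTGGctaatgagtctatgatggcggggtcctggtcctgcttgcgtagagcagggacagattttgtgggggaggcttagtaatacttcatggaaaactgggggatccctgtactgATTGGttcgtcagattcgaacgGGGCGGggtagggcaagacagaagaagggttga
*Abca1*, chr4:53159896-53160145, minus strand: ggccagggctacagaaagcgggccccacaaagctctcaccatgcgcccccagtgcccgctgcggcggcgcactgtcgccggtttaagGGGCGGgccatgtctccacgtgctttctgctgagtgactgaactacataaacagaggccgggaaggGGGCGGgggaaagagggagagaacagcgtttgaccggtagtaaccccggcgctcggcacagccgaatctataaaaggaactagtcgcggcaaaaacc

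*Hmgcs1* held the SRE letters as TCACCCCAC, starting 137 bases upstream of the RefSeq start, between CCAAT matches at 45 and 176 bases. No other of the 6 windows held them. *Msmo1* and *Hsd17b7* had 3 CCAAT matches each in the printed bases and *Ebp* and *Nsdhl* had 2, whereas *Abca1* had GC boxes only. RefSeq promoter entries, from 250 bases before to 50 after the start, were matched for 23 of the 29 members, 15 of them enzymes. The SRE letters were found in 1 of the 23 and in 1.44% of the 27025 genes with an entry. CCAAT, on either strand, was found in 14 of the 15 enzymes and in 41.1% of all genes, or 43.3% of the tested genes. GC boxes were found in 14 of the 15 enzymes, in 38.2% of all genes and in 67.8% of the tested genes. A match gives letters and not binding, and a window without a match says only that these letters are not in it.

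Among the genes that sense sterols and control SREBP2, no gene was called and the groups overlapped in all 4. Most tested genes were likewise not called and overlapped. Only 1.97% were called lower and 3.52% higher, and 10.0% lay lower and 18.1% higher without overlap. *Srebf2*, which encodes SREBP2, had 188, 83.8 and 170.0 TPM without 4OHT and 167, 173 and 199.7 TPM with it. OSKA − 4OHT replicate 2 stood apart from the other 5 wells, and the log2 fold change of 0.37 (95% interval -0.38 to 1.12, limma adjusted p = 0.554) leaned on that well, being 0.0047 without it. *Insig1*, itself a well-known target of SREBP2, had 92.2, 80.6 and 81.9 TPM without 4OHT and 92.7, 89.0 and 80.1 TPM with it. Its groups lay over each other, and the log2 fold change was 0.04 with a 95% interval of -0.28 to 0.36 (limma adjusted p = 0.895), a sign that turned under other scalings.

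*Scap*, the escort of SREBP2, had 21.3, 17.8 and 17.2 TPM without 4OHT and 36.3, 53.4 and 17.3 TPM with it, and *Insig2*, the second retention protein, had 19.5, 25.4 and 19.0 TPM without 4OHT and 51.0, 21.4 and 40.7 TPM with it. Both had a pair of wells with 4OHT above the range of the wells without it and a well inside that range, replicate 3 for *Scap* and replicate 2 for *Insig2*. Their log2 fold changes were 0.77 (limma adjusted p = 0.337) and 0.73 (limma adjusted p = 0.283). With a well left out they ranged from 0.41 (without OSKA + 4OHT replicate 2) to 1.21 (without OSKA + 4OHT replicate 3) for *Scap* and from 0.47 (without OSKA + 4OHT replicate 1) to 1.09 (without OSKA + 4OHT replicate 2) for *Insig2*.

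Efflux and receptor turnover are the branch that liver X receptors raise. *Abca1*, which hands cholesterol to apolipoproteins at the cell surface, lies on chromosome 4, 53030787 to 53159895. It had 71.6, 74.4 and 78.1 TPM without 4OHT and 124, 119 and 117 TPM with it. The lowest well with 4OHT was far above the highest without it, and the mean rose from 74.7 ± 3.26 to 120.0 ± 3.60 TPM (SD, n = 3 each), by 60.7%. The log2 fold change was 0.68 (SE 0.116, 95% interval 0.40 to 0.96, limma adjusted p = 0.0277), and *Abca1* was the only one of the 11 genes outside synthesis that was called or whose groups did not overlap, against 18.1% of all tested genes that lay higher without overlap. With any 1 well left out *Abca1* was not called either, with limma adjusted p-values from 0.0618 to 0.107 and log2 fold changes from 0.65 to 0.71. Over all tested genes 115 to 306 were called higher in these fits, against 542 with all wells.

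*Abcg1*, the partner transporter of *Abca1* in efflux, and *Mylip*, a ubiquitin ligase that lowers lipoprotein receptors, are also targets of liver X receptors. *Abcg1* was near the limit of the filter, with 0.749, 2.73 and 0.990 TPM without 4OHT and 1.08, 3.63 and 0.615 TPM with it and a log2 fold change of 0.093 (95% interval -1.59 to 1.77, limma adjusted p = 0.959). *Mylip* had 6.16, 4.11 and 3.19 TPM without 4OHT and 4.10, 3.79 and 4.97 TPM with it and a log2 fold change of -0.024 (limma adjusted p = 0.980). Neither gene separated the groups, and the 95% intervals of both (-0.79 to 0.74 for *Mylip*) include the value of *Abca1*.

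**Figure D4:**
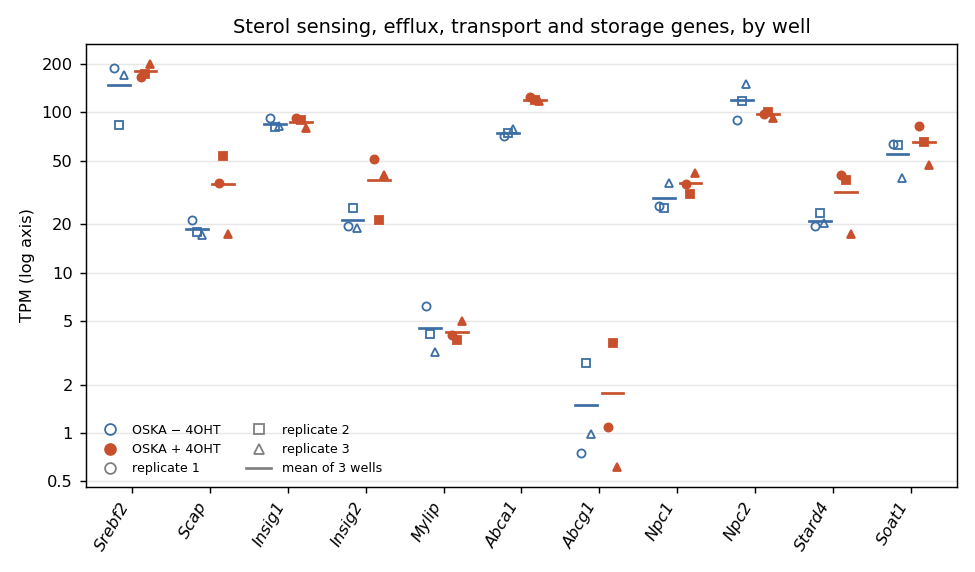
TPM of the 11 members outside synthesis, on a log axis, with a symbol for each well and a line at the mean of 3 wells. Open blue symbols are OSKA − 4OHT and filled red symbols OSKA + 4OHT. *Abca1* is the only gene whose red symbols (117.2 to 124.1 TPM) all lie apart from its blue ones (71.6 to 78.1 TPM).

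The genes that move cholesterol inside the cell overlapped between the groups. *Npc1*, which exports cholesterol from lysosomes, had 25.9, 25.4 and 36.0 TPM without 4OHT and 35.7, 30.8 and 41.7 TPM with it (log2 fold change 0.31, limma adjusted p = 0.458), and *Npc2*, its soluble partner, had 89.4, 118 and 150.5 TPM without 4OHT and 98.0, 101 and 92.0 TPM with it (log2 fold change -0.27, limma adjusted p = 0.518). The value of *Npc2* was -0.087 without OSKA − 4OHT replicate 3 and -0.46 without OSKA − 4OHT replicate 1. *Stard4*, a sterol carrier of the cytosol and a known SREBP2 target, had 19.5, 23.4 and 20.4 TPM without 4OHT and 40.4, 37.6 and 17.5 TPM with it. For *Stard4* replicates 1 and 2 with 4OHT were above all wells without it and replicate 3 below them, and the log2 fold change was 0.50 (limma adjusted p = 0.463). With a well left out it ranged from 0.28 (without OSKA + 4OHT replicate 1) to 0.87 (without OSKA + 4OHT replicate 3). *Soat1*, which esterifies cholesterol for storage, had 63.8, 62.8 and 39.0 TPM without 4OHT and 82.2, 65.5 and 46.7 TPM with it (log2 fold change 0.23, limma adjusted p = 0.689).

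Levels were also set against the summed synthesis enzymes of the same well, a measure that no scaling factor per library can move. Because that sum is lower with 4OHT, a gene of steady TPM would stand 1.41 times as high on this measure, and 41.4% of all tested genes lay higher and 3.13% lower without overlap. Of the 11 members outside synthesis, 8 lay higher, all but *Mylip*, *Abcg1* and *Npc2*, and 0 lower, and these separations cannot be read apart from the lower enzyme sum. *Abca1* amounted to 5.06, 5.41 and 4.73% of the summed TPM of the 18 enzymes without 4OHT and to 11.7, 10.4 and 12.4% with it, with means of 5.07 ± 0.337% and 11.5 ± 0.995% (SD, n = 3 each). The ratios were not tested.

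A further 31 genes of sterol metabolism, listed by role, place the members in their pathway. Of the 30 that were tested, 1 was called lower and 2 higher, against 1.97% and 3.52% of all tested genes, and their median log2 fold change was 0.094. Their groups did not overlap in 8 genes that lay higher and 1 that lay lower, against 18.1% and 10.0% of all tested genes. None of the 8 genes of the isoprenoid branches was called. Their log2 fold changes ran from -0.50 for *Pdss2*, a subunit of the enzyme that makes the ubiquinone side chain (limma adjusted p = 0.627), to 0.64 for *Fntb*, a subunit of protein farnesyltransferase (limma adjusted p = 0.486).

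Of the 9 genes of sterol sensing and SREBP processing, 1 was called. *Tmem97*, a partner of the lysosomal cholesterol exporter NPC1 and known as the sigma-2 receptor, had 24.0, 28.1 and 21.6 TPM without 4OHT and 45.4, 49.7 and 45.4 TPM with it. It is a known SREBP2 target, and it rose with a log2 fold change of 0.92 (SE 0.162, limma adjusted p = 0.0298), opposite to *Msmo1* and *Ebp*. *Tmem97* was not called with any 1 well left out, when the limma adjusted p ranged from 0.0569 to 0.116. Calls higher over all tested genes were then 115 to 306, against 542 with all wells. The lowest log2 fold change of the list was that of *Erlin1*, whose protein helps degrade sterol-regulated proteins of the endoplasmic reticulum. *Erlin1* had 12.4, 189 and 12.2 TPM without 4OHT and 21.1, 32.4 and 15.2 TPM with it (log2 fold change -0.49, limma adjusted p = 0.829), and OSKA − 4OHT replicate 2 stood far above the other 5 wells. *Srebf1*, which encodes the related factor of fatty acid synthesis, is named here after its values were seen. It had 81.9, 146 and 103 TPM without 4OHT and 239.9, 183 and 171 TPM with it, all wells with 4OHT above those without, and its log2 fold change was 0.87 (limma adjusted p = 0.105).

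In uptake, storage and transfer, 1 of 10 genes was called. *Lrp1*, an endocytic receptor of lipoprotein remnants and many other ligands, had 399, 367 and 396 TPM without 4OHT and 206, 215 and 179.9 TPM with it. It fell by 48.4%, with a log2 fold change of -0.96 (SE 0.114, limma adjusted p = 0.0100), and it was called in 5 of the 6 fits that left a well out, all but that without OSKA + 4OHT replicate 1. The highest fold change of this list was that of *Gramd1c*, a carrier of sterols from the plasma membrane. *Gramd1c* had 1.37, 2.18 and 1.37 TPM without 4OHT and 7.24, 5.18 and 2.88 TPM with it (log2 fold change 1.33, limma adjusted p = 0.136), low levels whose spread within the wells with 4OHT was wide.

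The 3 tested genes of the other sterol enzymes were all among the 8 that lay higher without overlap, which 18.1% of all tested genes did. *Cyp7b1*, which hydroxylates oxysterols and so removes them, had 1.48, 2.28 and 1.78 TPM without 4OHT and 8.71, 9.57 and 7.05 TPM with it, and it rose with a log2 fold change of 1.94 (SE 0.283, limma adjusted p = 0.0176). The call was lost without OSKA − 4OHT replicate 1, OSKA + 4OHT replicate 1 or OSKA + 4OHT replicate 2 and held without any of the other 3 wells, with limma adjusted p-values from 0.0465 to 0.0885. *Ch25h*, an enzyme that makes an oxysterol and is named after its values were seen, had 8.73, 5.97 and 9.77 TPM without 4OHT and 13.3, 16.7 and 20.1 TPM with it (log2 fold change 0.998, limma adjusted p = 0.0899). The smallest difference was that of *Lbr*, the lamin B receptor, which shares the reaction of *Tm7sf2*. *Lbr* had 42.6, 47.6 and 35.2 TPM without 4OHT and 52.4, 53.3 and 51.1 TPM with it (log2 fold change 0.33, limma adjusted p = 0.307), so the gene pair of this step lay on opposite sides of 0. The remaining gene, *Cyp27a1*, had a mean below 1 TPM over the 6 libraries and was not tested.

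**Figure D5:**
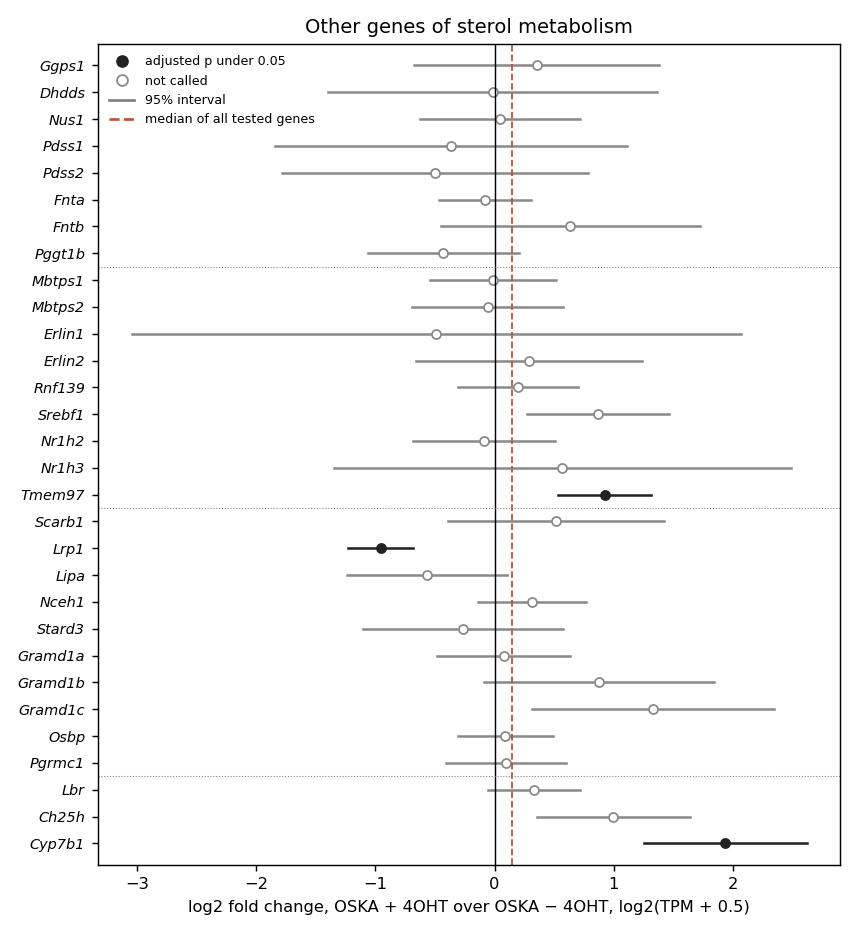
Log2 fold change of the 30 other tested genes of sterol metabolism, OSKA + 4OHT over OSKA − 4OHT on the log2(TPM + 0.5) scale, with 95% intervals. Dotted lines part isoprenoid branches, sensing and SREBP processing, uptake, storage and transfer, and other sterol enzymes. Filled points have an adjusted p under 0.05, and the dashed line is the median of all tested genes (0.14). *Lrp1* is the filled point on the left, and *Tmem97* and *Cyp7b1* are those on the right.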

How the data were processed

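RNA of 6 wells was measured as polyA libraries. The authors trimmed the reads with Trim Galore and quantified them with Salmon against a mouse transcriptome (version, release and build are not given in the sources used here). The deposited TPM values add up to the same total in each library, so depth is unknown and no counting interval is given. The authors' own comparison, made with edgeR, gives log2 fold changes and log2 average levels, a score (the F statistic) and an unadjusted p-value, all deposited beside the TPM. These columns were not used.

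Symbols and positions came from GENCODE M21 (GRCm38). Genes averaging at least 1 TPM were tested by limma-trend (limma 3.58.1, R 4.3.3) on log2(TPM + 0.5), which understates the change of low genes, with no block and Benjamini-Hochberg adjustment over the 15382 tested genes. Intervals are 95%. An exact permutation test of 3 against 3 wells cannot give a 2-sided p below 0.1 and was not used. On simulated data 200 of 14650 genes were changed, split over log2 changes of 0.6, 1 and 2. Of the genes at each size, 1.49%, 16.4% and 60.6% were recovered in turn, with 6 false calls, and 0 calls when nothing changed. A member without a call may thus have changed.

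All members were named, with the called genes and the extremes of each list of other sterol genes. Exceptions are marked. Members and lists were chosen with earlier results of these data known, and some genes of the pathway are not reported here. Similar transcripts were searched with BLAST 2.17.0 at 95% identity over at least 50 bases. Tables and plots used Python 3.11.15, pandas 2.3.3 and matplotlib 3.10.9.

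Alternatives were other pseudocounts and filters, 2 other scalings, the replicate number as a block, other variance priors and leaving out each well. The sum of *Idi1* and *Gm13502* was added after the data were seen.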

Additional observations from a re-analysis of the deposited data

How the results depend on the processing

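The number of synthesis enzymes called lower, 2 as reported and the same as that of all members, was 1 (*Msmo1*) with no filter on low values and 6 with either median of ratios scaling or quantile normalization. Over all tested genes the share called lower went from 1.97% to 0.905%, 2.93% and 2.82% in these settings. Those 6 were *Hmgcs1*, *Lss*, *Msmo1*, *Nsdhl*, *Hsd17b7* and *Ebp*. It was 0 with no trend in the limma variance prior, 0 with the replicate block and 0 with any 1 well left out. In these fits 1.38%, 0.104% and 0.419% to 0.93% of all tested genes were called lower. By limma, 9, 8 and 7 to 10 members were lower at an unadjusted p under 0.05. The shares of all tested genes were 6.87%, 6.23% and 5.92% to 6.66%. The number of members called higher, 1 (*Abca1*), was 0 with no trend, 0 with the replicate block and 0 with any 1 well left out. Calls higher over all tested genes were 435, 31 and 115 to 306, against 542 as reported. At an unadjusted p under 0.05 in limma, 1, 1 and 1 to 3 members were higher. That was no more than the 13.3%, 12.4% and 10.3% to 14.1% of all tested genes. Of the other sterol genes, 2 were called higher as reported, 1 (*Cyp7b1*) with no trend, 0 with the replicate block and 0 to 1 with a well left out. Likewise 1 was called lower as reported, 0 with the replicate block and 0 to 1 with a well left out. At an unadjusted p under 0.05 the limma fit with the block had 5 of these genes higher and 1 lower, against 12.4% and 6.23% of all tested genes.

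The scalings moved the median of all tested genes from 0.14 to 0.050 and -0.0047, and the share of calls that were higher from 64.1% to 51.1% and 49.7%. Signs turned for *Abcg1* (-0.42 with quantile normalization, -0.45 to 0.51 with a well left out) and *Insig1* (-0.063 and -0.061 with the scalings, -0.0050 to 0.10 with a well left out). With a well left out they also turned for *Dhcr7* (-0.77 to 0.88), *Mylip* (-0.22 to 0.21), *Pmvk* (-0.22 to 0.057) and *Soat1* (-0.0041 to 0.44). The cause was not tested. *Acat2* (-0.72 to -0.32), *Mvd* (-0.63 to -0.31), *Cyp51* (-0.96 to -0.50) and *Npc1* (0.20 to 0.47) moved with a well left out but kept their sign. All 18 enzymes stayed below 0 in every setting except without OSKA − 4OHT replicate 3 and without OSKA + 4OHT replicate 3, with 16 each. The ratio of their summed TPM, 0.709, was 0.658 after median of ratios scaling and 0.679 to 0.752 with a well left out.

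The replicate numbers share no known source. Residuals of same-numbered wells correlated at 0.024, 0.034 and 0.084. OSKA + 4OHT replicates 2 and 3 correlated best with the OSKA − 4OHT well of their own number. OSKA + 4OHT replicate 1 correlated best with OSKA − 4OHT replicate 2 (0.033). With the block, calls over all genes went from 303 lower and 542 higher to 16 and 31.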
